A study of Homo sapiens with 8 samples.

Results

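The 9 genes described here encode the enzymes that make serine from a glycolytic intermediate and pass its carbon into the folate pool: PHGDH, PSAT1, PSPH, SHMT1, SHMT2, MTHFD1, MTHFD2, MTHFD1L and ALDH1L2. They were chosen by name, with earlier results of these data known. Each symbol matched 1 row of the 58870 gene rows in the count table. The series compared Panc 10.05, an established human line derived from pancreatic ductal adenocarcinoma, in 2 groups of 4 libraries. These were control cells and the same line labelled as overexpressing ELAPOR1. The labels do not state what the control cells received, how ELAPOR1 was raised, or the vector or promoter if a transgene was used. They also leave out whether the cells were a clone or a pool, the time of harvest, and whether replicates were separate cultures. The p-values therefore measure only the spread between these libraries, which may be technical. The title of the series names metabolic reprogramming by ELAPOR1 as its subject, and the comparison asked here is whether transcripts of these enzymes differed between the groups.

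In the serine synthesis pathway PHGDH oxidises 3-phosphoglycerate, PSAT1 transfers an amino group from glutamate, and PSPH removes the phosphate to leave serine. SHMT enzymes then split serine into glycine and a carbon unit carried on tetrahydrofolate, SHMT2 in mitochondria and SHMT1 mainly in the cytosol. Within mitochondria MTHFD2 oxidises that unit, MTHFD1L releases it as formate and ALDH1L2 can oxidise it to carbon dioxide, while the cytosolic enzyme MTHFD1 takes formate back into folate for purine and thymidylate synthesis. PHGDH, PSAT1, PSPH, SHMT2 and MTHFD2 are known targets of ATF4, the transcription factor of the amino acid response.

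The library totals ran from 16558600 to 18128757 counts in control and from 13765509 to 17258166 counts in ELAPOR1 libraries. ELAPOR1, listed as KIAA1324, had 1, 1, 4 and 4 counts in the control libraries. In the ELAPOR1 libraries it had 7006, 6422, 5910 and 7368 counts, so every library matched its label. All 6 ductal epithelial markers examined were tested, and their summed level was 11929 to 13196 CPM (counts per 1000000 counts of the library, after scaling between libraries) in control and 11159 to 11510 CPM in ELAPOR1 libraries. These markers moved both ways, with 3 called higher and 2 lower, and KRT8 was the most abundant of them. The summed level of 6 fibroblast markers was at most 4.32 CPM, of 5 leukocyte markers at most 0.732 CPM and of 3 endothelial markers at most 1.95 CPM, with COL1A2, DCN, LUM, CD3E and CDH5 at 0 in every library. Endothelial markers ran from 1.61 to 1.95 CPM in control and from 0.576 to 0.865 CPM in ELAPOR1 libraries, and acinar markers were at 0 throughout.

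RefSeq promoter windows (GRCh38.p14, 250 bases before to 50 bases after a start site) were found for 6 of the 9 genes. The windows below belong to the 2 serine synthesis genes that fell, to MTHFD1, the gene that rose, and to MTHFD1L, whose window holds the letters of an ATF4 and C/EBP composite element. Capitals mark matches, on either strand, to TGATGNAA (composite element), CACGTG (E-box, bound by MYC and related factors) or TGACNNNGC (core of the antioxidant response element). The PHGDH window is chr1:119711684-119711983, that of PSAT1 chr9:78296875-78297174, that of MTHFD1 chr14:64388103-64388402 and that of MTHFD1L chr6:150866236-150866535, all on the plus strand.
PHGDH: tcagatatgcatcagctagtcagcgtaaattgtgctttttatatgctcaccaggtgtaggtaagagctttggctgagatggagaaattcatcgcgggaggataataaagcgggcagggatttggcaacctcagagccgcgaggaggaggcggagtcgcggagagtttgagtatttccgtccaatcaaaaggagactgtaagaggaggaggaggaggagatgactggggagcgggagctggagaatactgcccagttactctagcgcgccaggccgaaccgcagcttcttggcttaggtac
PSAT1: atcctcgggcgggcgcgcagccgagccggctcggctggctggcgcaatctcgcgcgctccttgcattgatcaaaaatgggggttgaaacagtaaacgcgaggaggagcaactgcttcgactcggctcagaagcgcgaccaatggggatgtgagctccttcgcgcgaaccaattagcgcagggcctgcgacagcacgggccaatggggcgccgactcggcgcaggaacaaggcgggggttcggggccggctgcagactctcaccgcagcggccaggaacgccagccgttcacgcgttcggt
MTHFD1: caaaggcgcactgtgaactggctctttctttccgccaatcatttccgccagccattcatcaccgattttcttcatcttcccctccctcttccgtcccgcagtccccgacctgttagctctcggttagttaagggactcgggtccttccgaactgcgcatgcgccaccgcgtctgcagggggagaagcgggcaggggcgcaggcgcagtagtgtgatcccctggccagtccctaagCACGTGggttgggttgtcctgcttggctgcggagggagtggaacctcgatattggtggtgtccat
MTHFD1L: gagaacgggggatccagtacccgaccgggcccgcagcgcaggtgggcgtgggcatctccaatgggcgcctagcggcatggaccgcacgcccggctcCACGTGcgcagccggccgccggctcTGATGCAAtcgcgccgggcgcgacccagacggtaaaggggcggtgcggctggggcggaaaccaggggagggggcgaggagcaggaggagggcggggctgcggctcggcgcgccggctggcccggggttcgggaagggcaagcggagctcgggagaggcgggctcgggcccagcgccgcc
Counting from the start site as 0, MTHFD1L held CACGTG at -154 to -149 and TGATGCAA at -129 to -122, and MTHFD1 held CACGTG at -15 to -10. No matches overlapped, and the windows of PHGDH and PSAT1 held none. Of the 6 genes, 1 held TGATGNAA, 2 held CACGTG and 1, MTHFD2, held TGACNNNGC at 6 to 14. Among all 35116 windows these motifs were found in 3.62%, 7.26% and 13.3%. MTHFD1L has 4 windows in the table, of which 3 overlap and hold the same pair of matches. A match describes letters in a window and no more.

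Transcripts of 6 of these enzymes were lower in ELAPOR1 libraries and those of 1, MTHFD1, were higher. PHGDH was left at 29.4% of its control level, and the other 5 genes that fell at 72.3% to 90.3%. Of the 9 genes, 8 passed the filter on low counts and were tested with edgeR's quasi-likelihood test, with Benjamini-Hochberg adjustment over 13860 genes and a threshold of 0.05. Among all tested genes, 44.7% were called in either direction, 22.1% lower and 22.6% higher. The enzymes were called in 7 of 8 cases. The median log2 fold change of the 8 was -0.24, against 0.00087 for all tested genes. Without regard to sign these medians were closer, at 0.24 and 0.18. By size of change MTHFD2, MTHFD1 and MTHFD1L ranked only 5699, 6109 and 7908 among the 13860 genes. CPM did not overlap between the groups for 7 of the 8, against 39.2% of all tested genes. Since the enzymes were chosen with earlier results known, these comparisons with all genes are descriptive and not a test. Because the libraries are bulk RNA, fewer cells with a transcript and less of it per cell cannot be told apart.

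**Figure D1:**
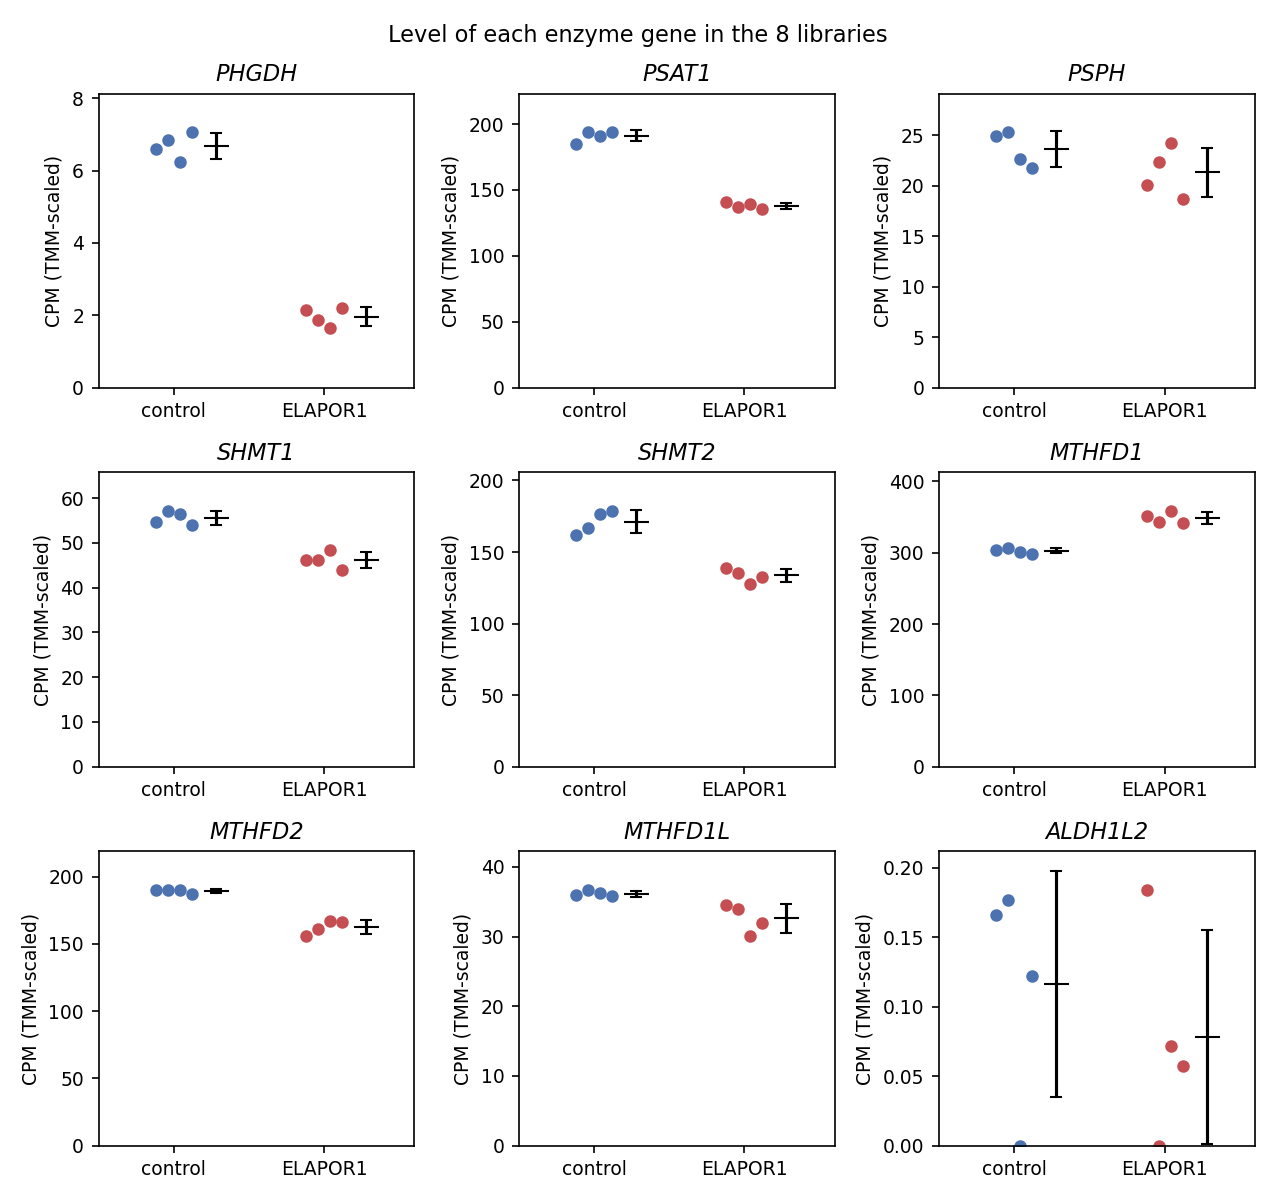
CPM scaled between libraries (vertical axis, from 0) of the 9 enzyme genes in 4 control (blue) and 4 ELAPOR1 (red) libraries, in replicate order; bars give the mean ± SD. PHGDH has the largest fold change of the tested genes, at 6.23 to 7.07 against 1.66 to 2.19 CPM. MTHFD1 is the gene that is higher in ELAPOR1, PSPH overlaps, and ALDH1L2 reaches at most 0.184 CPM.

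PHGDH (ENSG00000092621.12, chromosome 1, 119648411 to 119744226 in GRCh38, plus strand), the first and committed enzyme of the pathway, changed most. Its counts were 119, 116, 104 and 116 in control replicates 1 to 4 and 35, 28, 23 and 38 in ELAPOR1 replicates 1 to 4. After scaling these were 6.60, 6.84, 6.23 and 7.07 CPM against 2.15, 1.86, 1.66 and 2.19 CPM. Every ELAPOR1 library thus lay far under every control library. The averages were 6.69 ± 0.359 CPM in control and 1.96 ± 0.252 CPM with ELAPOR1 (SD, n = 4 each), and edgeR put the log2 fold change at -1.75 with an SE of 0.16 and an adjusted p of 6.4e-11. By size of change PHGDH ranked 73 among the 13860 tested genes. It is a weakly expressed gene in this line, since only 26.1% of tested genes had a lower mean CPM in control.

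PSAT1 (ENSG00000135069.14, chromosome 9, 78297143 to 78330093, plus strand), the aminotransferase of the second step, was abundant and fell less. Its levels were 185, 194, 191 and 194 CPM in control and 141, 137, 139 and 136 CPM in ELAPOR1 libraries. The groups were separated by a gap several times the spread within either. On average it fell from 191 ± 4.17 CPM in control to 138 ± 2.25 CPM with ELAPOR1 (SD, n = 4 each), and edgeR put the log2 fold change at -0.47 with an SE of 0.033 and an adjusted p of 8.0e-14.

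PSPH (ENSG00000146733.14, chromosome 7, 56011051 to 56051604, minus strand), the phosphatase of the last step, did not pass the test. Its levels were 24.9, 25.3, 22.6 and 21.7 CPM in control and 20.01, 22.3, 24.2 and 18.7 CPM in ELAPOR1 libraries. The groups overlapped, with ELAPOR1 replicate 3 above 2 of the control libraries. Means were 23.6 ± 1.77 and 21.3 ± 2.44 CPM (SD, n = 4 each). The log2 fold change of -0.16 had an SE of 0.078, and its adjusted p in edgeR was 0.0995 (0.0509 before adjustment). Without ELAPOR1 replicate 3, the library with the fewest counts, it was -0.22 (edgeR adjusted p = 0.0296), and without control replicate 4 it was -0.20 (adjusted p = 0.0432). Without ELAPOR1 replicate 4 it was -0.097 (edgeR adjusted p = 0.366), and leaving out any of the other 5 libraries also left PSPH short of the threshold. Together the 3 serine synthesis genes took 216 to 224 of every 1000000 counts in control and 157 to 167 in ELAPOR1 libraries, most of them from PSAT1.

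SHMT2 (ENSG00000182199.11, chromosome 12, 57229327 to 57234935, plus strand), the mitochondrial enzyme that splits serine, was at 162, 167, 177 and 179 CPM in control and 139, 135, 128 and 133 CPM in ELAPOR1 libraries. All ELAPOR1 values lay under all control values. On average it fell from 171 ± 7.97 CPM in control to 134 ± 4.69 CPM with ELAPOR1 (SD, n = 4 each), and edgeR put the log2 fold change at -0.35 with an SE of 0.037 and an adjusted p of 9.5e-10. SHMT1 (ENSG00000176974.20, chromosome 17, 18327860 to 18363563, minus strand), its cytosolic counterpart, was at 54.6, 57.2, 56.5 and 54.0 CPM in control and 46.3, 46.2, 48.5 and 44.1 CPM in ELAPOR1 libraries. These groups did not overlap either. On average it fell from 55.6 ± 1.53 CPM in control to 46.3 ± 1.82 CPM with ELAPOR1 (SD, n = 4 each), and edgeR put the log2 fold change at -0.27 with an SE of 0.049 and an adjusted p of 3.2e-05.

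MTHFD2 (ENSG00000065911.12, chromosome 2, 74198562 to 74217565, plus strand), the mitochondrial dehydrogenase and cyclohydrolase, was nearly constant in control at 190.3, 190.2, 189.98 and 187.1 CPM. In ELAPOR1 libraries it was at 156, 161, 167 and 166 CPM, all under the control values. On average it fell from 189 ± 1.52 CPM in control to 163 ± 5.17 CPM with ELAPOR1 (SD, n = 4 each), and edgeR put the log2 fold change at -0.22 with an SE of 0.033 and an adjusted p of 1.1e-06.

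MTHFD1L (ENSG00000120254.15, chromosome 6, 150865549 to 151101887, plus strand), which releases formate in mitochondria, changed least among the genes that passed. It was at 35.9, 36.7, 36.2 and 35.8 CPM in control and 34.6, 33.9, 30.0 and 32.0 CPM in ELAPOR1 libraries. The highest ELAPOR1 library lay just under the lowest control library. The means were 36.2 ± 0.404 and 32.6 ± 2.05 CPM (SD, n = 4 each), and edgeR put the log2 fold change at -0.15 with an SE of 0.058 and an adjusted p of 0.0402. This call was lost without ELAPOR1 replicate 3 (-0.11, edgeR adjusted p = 0.153), without ELAPOR1 replicate 4 (adjusted p = 0.0969) and without control replicate 2 (0.0832) or 3 (0.0714), with total-count scaling (0.0792), with no filter (0.0634) and in the DESeq2 Wald test (0.0665).

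MTHFD1 (ENSG00000100714.16, chromosome 14, 64388031 to 64463457, plus strand), the cytosolic enzyme with synthetase, cyclohydrolase and dehydrogenase activities in a single protein, went the other way. It was at 304, 307, 301 and 299 CPM in control and 351, 344, 359 and 341 CPM in ELAPOR1 libraries, with no overlap. On average it rose from 303 ± 3.55 CPM in control to 349 ± 7.80 CPM with ELAPOR1 (SD, n = 4 each), and edgeR put the log2 fold change at 0.20 with an SE of 0.029 and an adjusted p of 5.3e-07.

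ALDH1L2 (ENSG00000136010.14, chromosome 12, 105019784 to 105084577, minus strand), the mitochondrial formyltetrahydrofolate dehydrogenase, was hardly detected. It had 3, 3, 0 and 2 counts in control and 3, 0, 1 and 1 counts in ELAPOR1 libraries and was not tested. At this depth a difference between the groups was not detectable, and no fold is given.

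**Figure D2:**
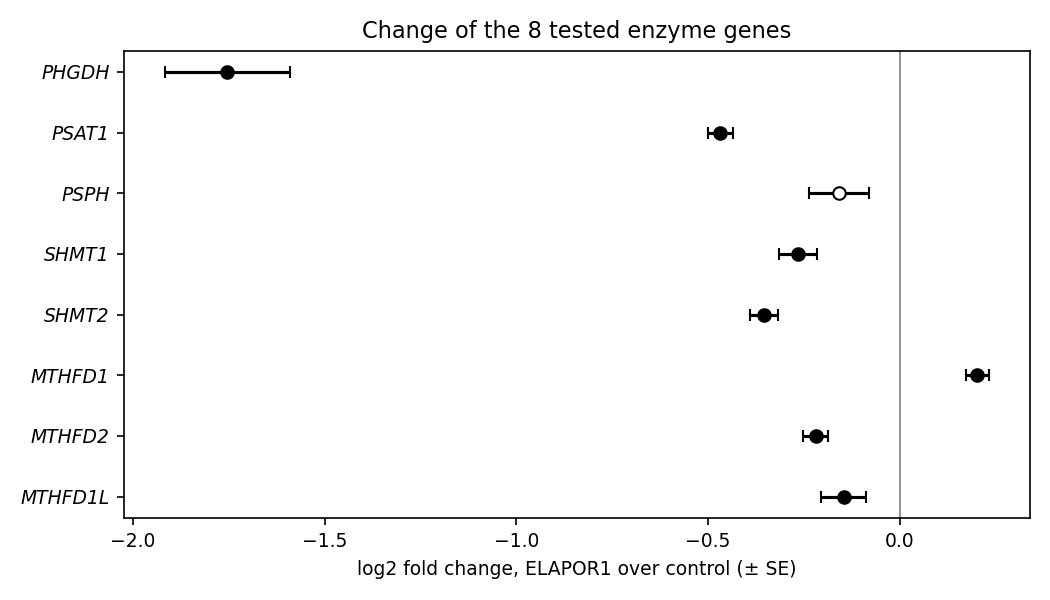
Log2 fold change of ELAPOR1 over control (horizontal axis, ± SE from the edgeR fit) for the 8 tested enzyme genes; filled points passed the adjusted threshold of 0.05 and the open point did not. PHGDH lies at -1.75, MTHFD1 alone lies to the right of 0 at 0.20, and the other 6 lie between -0.47 and -0.15.

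To ask whether enzymes of neighbouring steps or of the 2 compartments changed by different amounts, the log2 ratio of their CPM was taken in each library and compared between groups with a two-sided exact permutation test. With 4 against 4 libraries the smallest p this test can give is 0.0286, and 6 ratios had no 0 in any library and were adjusted together. The ratio of PHGDH to PSAT1 was -4.84 ± 0.0701 in control and -6.14 ± 0.197 in ELAPOR1 libraries on the log2 scale (SD, n = 4 each). The difference of -1.31 had an exact permutation p of 0.0286 (0.0343 adjusted over the 6). The transcripts of the first step were therefore reduced more than those of the second. PSAT1 also fell against PSPH, by 0.31 on the log2 scale (exact permutation p = 0.0286, adjusted 0.0343), from a ratio of 8.10 to 6.52 in linear terms. PHGDH fell against PSPH by 1.62 on the log2 scale, with the same p-values.

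In the folate arm, the mitochondrial MTHFD2 and MTHFD1L were each compared with the cytosolic MTHFD1, so both ratios share the gene that rose. The ratio of MTHFD2 to MTHFD1 was -0.68 ± 0.0106 in control and -1.10 ± 0.0534 in ELAPOR1 libraries (log2, SD, n = 4 each). It differed by -0.42 (exact permutation p = 0.0286, adjusted 0.0343), so that MTHFD2 went from 0.625 to 0.467 counts per count of MTHFD1. MTHFD1L to MTHFD1 went from -3.07 ± 0.0103 to -3.42 ± 0.112, a difference of -0.35 with the same p-values. In both cases the 4 ELAPOR1 libraries lay under the 4 control libraries. SHMT1, also mainly cytosolic, fell (-0.27), so the enzymes did not divide by compartment. SHMT2 against SHMT1 was different, since both fell and their log2 ratio of 1.62 ± 0.0827 in control and 1.53 ± 0.0908 in ELAPOR1 libraries overlapped. The difference of -0.090 (SE 0.061) did not pass (exact permutation p = 0.257, adjusted 0.257), which does not show that the 2 changed alike.

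**Figure D3:**
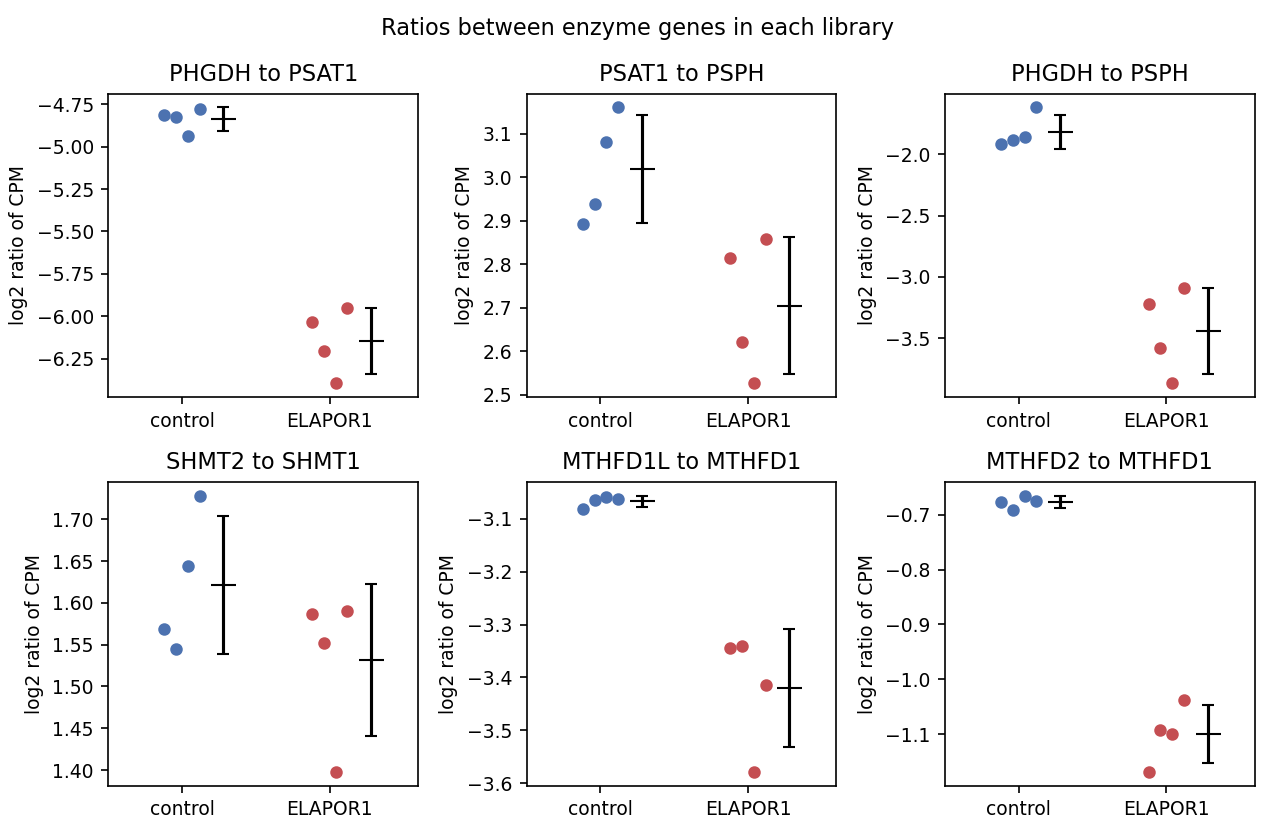
Log2 ratio of the CPM of 2 enzyme genes (vertical axes, each with its own range and not starting at 0) in 4 control (blue) and 4 ELAPOR1 (red) libraries; bars give the mean ± SD. In 5 of the 6 ratios all ELAPOR1 libraries lie under all control libraries, while SHMT2 to SHMT1 overlaps.

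Levels of different genes were compared per length, as CPM per kilobase of merged exons in GENCODE 29. In control PSAT1 stood highest at 87.4 ± 1.91, followed by MTHFD2 at 38.9 ± 0.313, SHMT2 at 35.4 ± 1.65 and MTHFD1 at 32.3 ± 0.379 CPM per kilobase (SD, n = 4 each). PSPH at 8.56 ± 0.639, SHMT1 at 7.63 ± 0.210 and MTHFD1L at 7.20 ± 0.0805 formed a lower group. PHGDH followed at 0.725 ± 0.0390 and ALDH1L2 at 0.0137 ± 0.00954 CPM per kilobase. No neighbours in that order overlapped between libraries in control. In ELAPOR1 libraries MTHFD1 at 37.2 ± 0.832 moved above MTHFD2 at 33.4 ± 1.06 and SHMT2 at 27.6 ± 0.969 CPM per kilobase, while PSPH, MTHFD1L and SHMT1 overlapped in pairs next to each other.

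The order depends on the length used. With the longest APPRIS principal transcript in place of merged exons, a choice made after seeing the values, MTHFD1 stood first in control at 96.6 and PSAT1 second at 87.4 CPM per kilobase. SHMT2 then followed at 67.4, MTHFD2 at 42.5, SHMT1 at 22.6, PSPH at 10.9 and MTHFD1L at 10.0. PHGDH at 2.59 and ALDH1L2 at 0.0154 CPM per kilobase kept the last places. Under either length the enzyme of the first step of serine synthesis was measured far lower per length than the enzyme of the second.

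**Figure D4:**
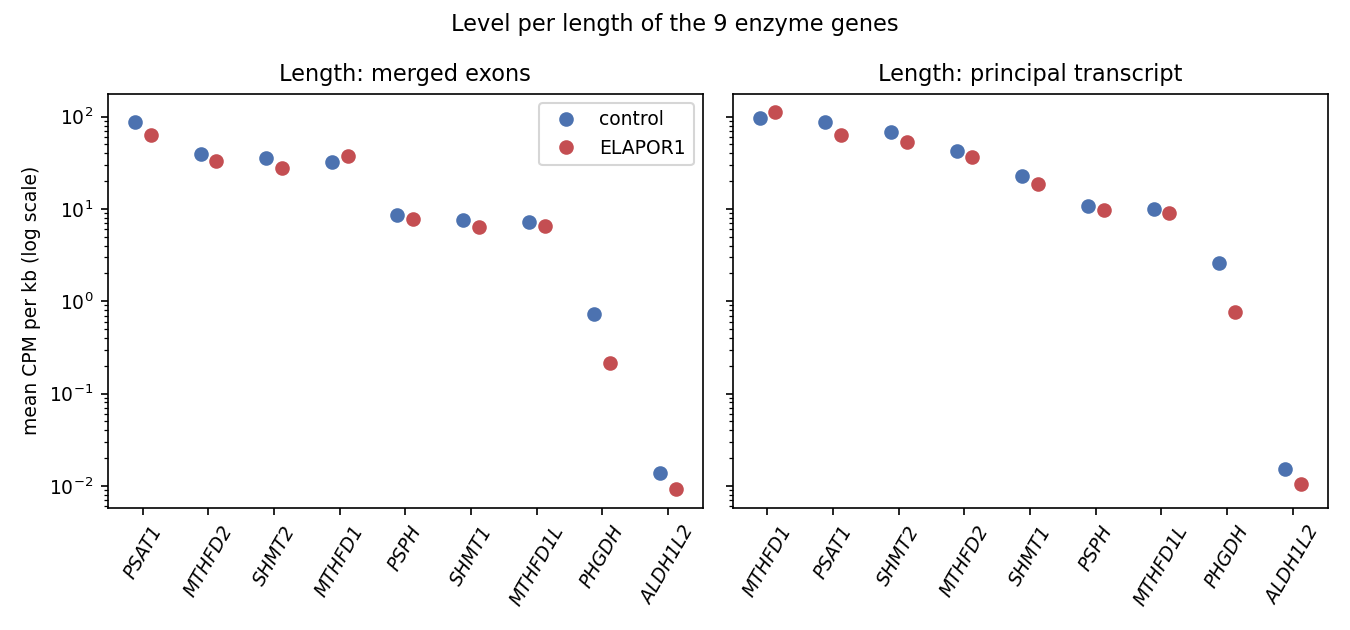
Mean CPM per kilobase (vertical axis, log scale) of the 9 enzyme genes in control (blue) and ELAPOR1 (red) libraries, with length taken from merged exons (left) or the principal transcript (right), ordered by the control level. PHGDH and ALDH1L2 are the lowest under both lengths, whereas MTHFD1 stands under MTHFD2 and SHMT2 on the left and first on the right.

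The genes lie on 8 chromosomes, and the nearest tested genes, 5 on each side by start position, were examined for shared shifts. Around PHGDH the median log2 fold change of the 10 neighbours was 0.0070 (range -0.36 to 0.69), and 0 were called lower and 3 higher. Around PSAT1 it was 0.034, with 2 called lower and 2 higher. Around SHMT2 it was -0.25, with 6 of 10 called lower and 1 higher, so SHMT2 moved in the direction of its surroundings; the part of this in its value was not tested. MTHFD2, which fell, had neighbours with a median of 0.17 and 7 of 10 called higher. For SHMT1 and MTHFD1 the medians were 0.017 and -0.034, and for MTHFD1L 0.18.

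Some exons are shared with other genes in GENCODE 29, and the use of strand in counting is not given in the sources used here. MTHFD2 shares 1324 exonic bases with SLC4A5, which had at most 5 counts in any library, and 295 with AC006030.1, which had at most 3.65. MTHFD1 shares 756 with the antisense transcript AL122035.2 (8 to 20 counts) and 178 with ZBTB25 (320 to 494 counts), against 4902 to 5919 counts of MTHFD1 itself. SHMT1 shares 196 bases with SMCR8, which did not pass the test (-0.080, edgeR adjusted p = 0.339). Pseudogenes named as copies of these genes were at or near 0, with PSPHP1 and SHMT1P1 at 0 in all libraries and MTHFD1P1 at no more than 3 counts.

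The rest of the pathway was followed through 10 lists of related genes, also chosen with earlier results known. Their counts are descriptive and are read against 22.1% called lower and 22.6% called higher among all tested genes. Enzymes that interconvert folates outside the 9 genes were mixed, with 3 of 9 tested higher and 1 lower and a median log2 fold change of 0.076. MTHFD2L, the close relative of MTHFD2, rose by 0.26 on the log2 scale (edgeR adjusted p = 0.0413), opposite to MTHFD2 itself; that call was lost in the DESeq2 Wald test (adjusted p = 0.0844), with no filter (0.0649), with GC and length trends removed (0.0589) and without control replicate 1 (0.0849) or 2 (0.162) or ELAPOR1 replicate 1 (0.0966) or 3 (0.119). FPGS, which adds glutamates to folates, rose by 0.098 (edgeR adjusted p = 0.0420). TYMS, thymidylate synthase, was at 128 ± 5.13 and 128 ± 2.71 CPM (SD, n = 4 each) and did not pass.

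Of the glycine cleavage genes GLDC, AMT, GCSH and DLD, 0 of 4 were called by edgeR at the adjusted threshold, and GLDC, at under 1 CPM, was the 1 gene with an unadjusted p under 0.05 (0.0483); DESeq2 and limma-voom also called 0. Among folate carriers 1 of 3 tested was called: SLC46A1, the proton-coupled folate transporter, rose by 0.36 (edgeR adjusted p = 8.6e-04). Carriers of serine and glycine were lower in 4 of 7 tested cases and higher in 1, with a median of -0.25. SLC6A9, the glycine transporter, was at 10.4, 10.4, 11.1 and 10.9 CPM in control and 6.32, 6.92, 6.77 and 5.31 CPM in ELAPOR1 libraries. In edgeR this log2 change was -0.76 with an SE of 0.11 (adjusted p = 6.3e-07). SLC38A2, a sodium-coupled carrier of small neutral amino acids, fell by 0.47 (edgeR adjusted p = 2.8e-13), and SLC38A1 and SLC1A5 were the other 2 lower. SFXN1, the mitochondrial serine carrier, was the gene called higher, at 0.15.

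Genes that use serine for lipids and other products went both ways, with 5 of 13 lower and 3 higher and a median of -0.066. SPTLC3, a subunit of serine palmitoyltransferase, fell by 0.82 from 1.69 ± 0.188 to 0.946 ± 0.415 CPM (SD, n = 4 each, edgeR adjusted p = 0.0276); this rests on low counts, and leaving out control replicate 2 or ELAPOR1 replicate 2, 3 or 4 took the adjusted p to 0.0781, 0.126, 0.0636 and 0.0535. PTDSS2, a phosphatidylserine synthase, fell by 0.39 (edgeR adjusted p = 2.7e-05). The methionine cycle had 4 of 10 higher and 4 lower, with a median of -0.034. MAT1A, a methionine adenosyltransferase, rose by 0.69 (edgeR adjusted p = 1.3e-05), and PEMT, which methylates phosphatidylethanolamine, fell by 0.56 (adjusted p = 3.2e-04).

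Genes of purine ring synthesis, which takes carbon from formyl-folate, were higher in 5 of 8 tested cases and lower in 0, with a median of 0.16. PFAS rose by 0.24 (edgeR adjusted p = 4.8e-04) and PRPS1 by 0.23 (adjusted p = 3.0e-05), close to the 0.20 of MTHFD1, while GART and ATIC, which use the formyl group, did not pass (0.012 and 0.018). Of the glycolytic enzymes around 3-phosphoglycerate, the substrate of PHGDH, 4 of 5 were higher and 0 lower. PKM rose by 0.38 (edgeR adjusted p = 4.4e-14) and PGAM1, which draws on the same substrate, by 0.28 (adjusted p = 1.0e-09), and GAPDH did not pass (-0.00093).

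Among 13 tested regulators known to act on the serine synthesis genes, 4 were called lower and 3 higher, with a median of -0.011. ATF5 rose by 0.91 (edgeR adjusted p = 2.3e-17) and CEBPB, a partner of ATF4 on DNA, fell by 0.54 (adjusted p = 2.0e-05). ATF4, singled out after its values were seen, was at 349, 368, 366 and 406 CPM in control and 257, 259, 255 and 264 CPM in ELAPOR1 libraries, and edgeR put the log2 fold change at -0.53 with an SE of 0.035 and an adjusted p of 1.1e-13. MYC did not pass (-0.026, adjusted p = 0.580). In a list of other genes known as ATF4 targets, 12 of 16 tested were lower and 1, ALDH18A1, was higher, with a median of -0.26. The list left out the regulators above, whether or not they are ATF4 targets. Among those regulators ATF5 and ATF3 rose, by 0.91 and 0.32, and DDIT3 fell (-0.54). ASNS, asparagine synthetase, was at 108, 111, 105 and 121 CPM in control and 61.5, 61.7, 62.4 and 63.8 CPM in ELAPOR1 libraries, a fall of 0.84 (edgeR adjusted p = 4.3e-17). CHAC1, a glutathione-degrading enzyme, fell by 0.92 (adjusted p = 1.2e-07). The 16 listed genes ran from -0.92 (CHAC1) to 0.17 (ALDH18A1), a wide range. PSAT1, SHMT2, MTHFD2 and PSPH, with -0.47, -0.35, -0.22 and -0.16, lay inside it, though PSPH was not called. PHGDH at -1.75 lay under all 16. A part of ATF4 in these changes was not tested.

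**Figure D5:**
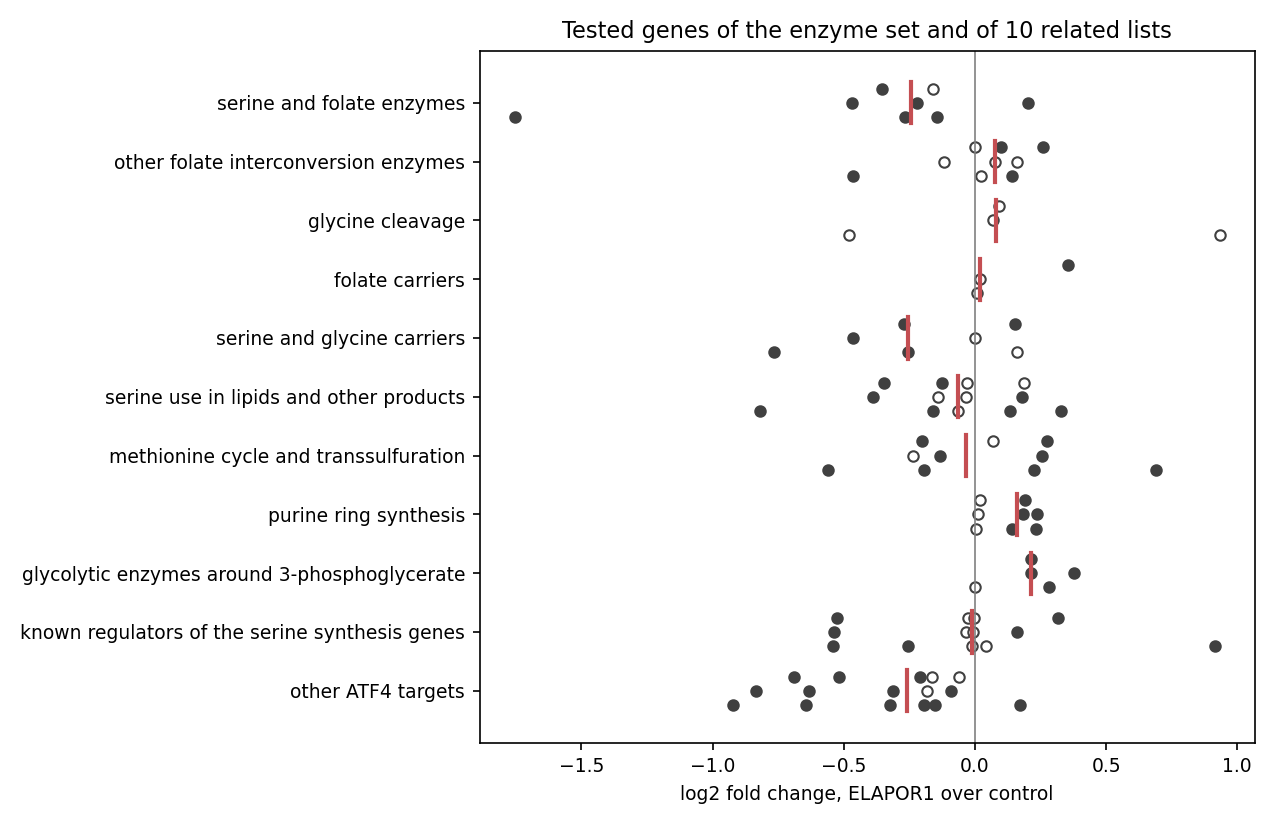
Log2 fold change of ELAPOR1 over control (horizontal axis) of each tested gene of the serine and folate enzymes and of 10 related lists; filled points passed the adjusted threshold, open points did not, and red bars are medians. The medians are -0.24 for the enzymes, -0.26 for other ATF4 targets and -0.25 for serine and glycine carriers. They are 0.16 for purine synthesis and 0.22 for the glycolytic enzymes. The remaining lists, folate carriers among them, have medians from -0.066 to 0.080.

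The genes whose log2(CPM + 1) followed PHGDH most closely over the 8 libraries, among 10703 genes averaging 5 CPM or more, were EIF3E (Pearson r = 0.9972), COL18A1 (0.9959), IDI1 (0.9956), CCNB1IP1 (0.9954) and ADAMTSL4 (0.9952). All are lower in ELAPOR1 libraries, and with 2 groups of 4 the coefficient mostly reflects that shared difference. None of the other serine and folate enzymes was among these 5.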

How the data were processed

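RNA was sequenced from 4 control and 4 ELAPOR1 libraries. The authors deposited estimated counts per gene (expected counts, 1 column per library, not scaled), and the submitters' processing notes name cutadapt, STAR, RSEM, DESeq2 and hg38, without versions. Annotation release and strand use are not given in the sources used here. Of the nonzero values 15.0% were not whole. The counts were rounded, filtered with filterByExpr, scaled with TMM and compared by robust glmQLFit and glmQLFTest without covariates (edgeR 4.0.16, R 4.3.3), with Benjamini-Hochberg adjustment over 13860 genes. The standard error is the fold change divided by the root of F. CPM use TMM-scaled library sizes. Replicates of a group differed by 1.94 to 6.12 times sampling noise (chi-square per degree of freedom). Control pairs ran from 2.14 to 6.12, the highest being replicates 1 and 4, and ELAPOR1 pairs from 1.94 to 2.22. None was therefore treated as the same library deposited again. This does not show that they came from separate cultures or RNA. The procedure was tested on simulated counts. Alternatives used DESeq2 1.42.0, limma 3.58.1, other scalings, filters and thresholds, left-out libraries, a replicate block and removal of GC and length trends (natural splines with 5 degrees of freedom; both properties were known for 99.8% of tested genes). Lengths, coordinates and neighbours are from GENCODE 29 (99.5% of gene rows matched without version), promoters from RefSeq. The 9 genes and the lists were chosen with earlier results of these data known. Genes named from lists are the 2 called with the largest change in each, with others named as examples chosen after their values were seen. For PHGDH the 5 most correlated genes are named. A few genes that this rule or the marker lists would name are not reported here.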

Additional observations from a re-analysis of the deposited data

Results flagged for a closer look

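In 2 of 68 groups of 4 libraries examined, one library stood apart from the remaining 3, relative to the range of its group, where chance flags about 1 in 20, here 3.4. For MTHFD2 this was control replicate 4, with 187.1 CPM where replicates 1 to 3 had 189.98 to 190.3 CPM. For PRPS1 it was control replicate 2, with 69.3 CPM where the rest of the group had 64.3 to 64.7 CPM. Both gaps are smaller than the difference between the group means, since ELAPOR1 libraries averaged 163 CPM for MTHFD2 and 77.1 CPM for PRPS1.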

How the results depend on the processing

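All alternatives kept PHGDH lower and past the threshold, with log2 fold changes from -1.81 to -1.69, and PSAT1, SHMT1, SHMT2 and MTHFD2 lower and MTHFD1 higher, past the threshold in all but the test against a 1.5-fold change. In that test 215 genes were called in all, 1 of the enzymes (PHGDH) lower and 0 higher; of the lists, regulators had 1 called higher (ATF5) and 0 lower, ATF4 targets 1 lower (ASNS) and 0 higher, and the counts of the other lists fell to 0. Leaving out 1 library at a time gave medians of the enzymes from -0.26 to -0.23. Of the folate interconversion list 1 gene was called higher, in place of 3, in the DESeq2 Wald test, with no filter and at an adjusted p under 0.01, and 1 to 3 without single libraries. Serine use had 3 lower, in place of 5, at an adjusted p under 0.01 and 3 to 5 without single libraries. The median of the serine and glycine carriers was -0.19 with no filter and -0.20 with GC and length trends removed. That of ATF4 targets was -0.33 with no filter. The median of the regulators was 0.011 with total counts, and that of the methionine cycle 0.0071 without ELAPOR1 replicate 1 (-0.046 to 0.0071 over single libraries left out), both opposite in sign to the main values of -0.011 and -0.034. Without single libraries, folate carriers had medians of 0.0058 to 0.069 and glycine cleavage had 0 to 1 genes called higher. The cause of these moves was not tested. With the replicate block 5926 genes were called, with 6 enzymes lower and 1 higher, and no enzyme changed its call. Deviations of same-numbered libraries correlated from -0.12 to 0.031, and those of differently numbered libraries from -0.13 to 0.13. The numbers thus gave no sign of pairing. Pairs with little shared variation would look the same, so this does not show that the samples were unpaired. The ratio of ALDH1L2 to MTHFD1L needed a pseudocount of 1 CPM. Over the 7 ratios then compared, the other ratios kept the same calls, but those with PHGDH became smaller. PHGDH to PSAT1 went from -1.31 to -0.91 and PHGDH to PSPH from -1.62 to -1.23. ALDH1L2, at 0 to 3 counts, limits any statement on that step.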
